A study of Mus musculus with 32 samples.

Results

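The regions described here are the open-chromatin peaks that ATAC-seq (cutting of accessible DNA by the Tn5 transposase, followed by sequencing) gave in early 2-cell mouse embryos cultured with A-485 or with its solvent DMSO. A-485 blocks the catalytic activity of CBP and p300, a pair of related histone acetyltransferases. The DMSO list held 42382 lines at 27693 positions and the A-485 list 23473 lines at 13712 positions. Lines at 1 position were joined into 1 peak, and each line was counted as 1 summit of that peak. These 41405 peaks are part of the 58713 peaks in the 4 ATAC-seq lists of the series, of which the other two lists come from late 1-cell embryos. A DMSO peak that overlapped an A-485 peak was called kept (6004 peaks), a DMSO peak that overlapped none was called lost (21689 peaks), and an A-485 peak that overlapped no DMSO peak was called gained (7688 peaks). On the A-485 side, 6024 peaks overlapped a DMSO peak, because 53 DMSO peaks met 2 A-485 peaks and 33 A-485 peaks met 2 DMSO peaks.

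The embryos were wild type and came from in vitro fertilisation of B6D2F1/J oocytes with B6D2F1/J sperm, both from mice aged 6 to 8 weeks. They were cultured in KSOM medium with 10 µM A-485 or with DMSO between 4 and 20 h after fertilisation (hpi). Each peak list was made over 2 replicate libraries of whole embryos, so there was 1 list per group. The lists allow no test of a difference between A-485 and DMSO, and the sequencing depth of the libraries is unknown. At like fold enrichment (within 0.05 on the log2 scale, 650 kept peaks) the median -log10 q was 1.24 times as high in the DMSO list. Over all peaks this ratio ran from 1.56 at a fold enrichment of 6 to 7 down to 0.919 at 10 to 12. Total RNA-seq of early 2-cell embryos (2 libraries per group), and of late 2-cell embryos (2 libraries per group) collected after the inhibitor had been washed off, was used to describe the genes near these peaks.

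Chromatin of the mouse zygote opens in steps. In the first division cycles promoters become accessible, and after the first cleavage distal elements, which can act on a promoter from a distance, open while the embryo starts to transcribe its own genome (zygotic genome activation, ZGA). CBP and p300 acetylate histones at enhancers and promoters, and bromodomain proteins read the acetyl groups. Transcription factors of the Obox and Otx family and the nuclear receptor Nr5a2 are present in the 2-cell embryo, and Sp and Klf factors bind the GC box of many CpG-rich promoters.

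Windows that reach 75 bases to either side of the summit are printed as examples of strong peaks of each class. They were chosen for holding the motifs named with each set, so they show what these sequences look like and not how the classes differ. All windows are from GRCm38 and read 5′ to 3′ on the plus strand. The first set holds lost distal peaks (more than 2.5 kb from any transcript start), with the motifs TCAAGGNCA (Nr5a2 type) and GGATTA (Obox and Otx type) in capitals on either strand. The window named for Lrguk (chr6:34093282-34093432, fold enrichment 22.0) lay in an intron of Lrguk, 53818 bp from its start. The window named for Nudcd1 (chr15:44371716-44371866, fold enrichment 20.2) was intergenic, and the 31 bases at its summit occurred at 3 places in the genome. The window named for Zfp981 (chr4:146493458-146493608, fold enrichment 18.3) lay in an intron of the lincRNA Gm26573.
Lrguk, lost: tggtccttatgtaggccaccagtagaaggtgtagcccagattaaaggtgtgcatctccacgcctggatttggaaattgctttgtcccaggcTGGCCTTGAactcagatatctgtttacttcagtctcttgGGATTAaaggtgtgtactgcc
Nudcd1, lost: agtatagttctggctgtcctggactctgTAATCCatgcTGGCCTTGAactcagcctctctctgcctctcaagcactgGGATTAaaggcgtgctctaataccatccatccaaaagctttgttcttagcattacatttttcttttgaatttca
Zfp981, lost: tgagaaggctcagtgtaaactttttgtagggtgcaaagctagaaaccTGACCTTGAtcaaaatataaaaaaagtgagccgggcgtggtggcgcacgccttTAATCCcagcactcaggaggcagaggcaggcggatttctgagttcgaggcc
All 3 hold the 12-mer CCTTTAATCCCA or its reverse complement TGGGATTAAAGG. So do the strongest lost distal peaks of 2 genes counted below. The peak near Esrrb (chr12:86556566-86556716, intergenic) had a fold enrichment of 10.7, and the peak near Kat6b (chr14:21648248-21648398, intron) 12.9.
Esrrb, lost: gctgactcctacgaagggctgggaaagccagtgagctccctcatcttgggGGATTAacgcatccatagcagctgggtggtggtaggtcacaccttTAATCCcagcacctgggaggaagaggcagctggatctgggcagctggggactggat
Kat6b, lost: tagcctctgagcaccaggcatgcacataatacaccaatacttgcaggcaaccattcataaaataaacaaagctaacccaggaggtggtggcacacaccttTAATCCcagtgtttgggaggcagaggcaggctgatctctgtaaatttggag
Kept distal peaks were chosen for printing by the Ctcf core CCANNAGGG, and kept promoter peaks (within 1 kb of a transcript start) by the GC box GGGCGG, again in capitals. The window named for Gdi2 (chr13:3406748-3406898, intergenic) had a fold enrichment of 16 in DMSO and 17.2 in A-485. The window named for Msx2 (chr13:53426614-53426764, in an intron of the lincRNA Gm2762) went from 13.7 to 9.42. The window in Peak1 (chr9:56223806-56223956, outside its exons) went from 27.4 to 14.4, and the window named for Gm13212 (chr4:145640480-145640630, inside the lincRNA Gm26763) from 22.6 to 9.51.
Gdi2, kept distal: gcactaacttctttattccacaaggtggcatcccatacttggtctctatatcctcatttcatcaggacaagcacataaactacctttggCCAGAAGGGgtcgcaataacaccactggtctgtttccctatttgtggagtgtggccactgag
Msx2, kept distal: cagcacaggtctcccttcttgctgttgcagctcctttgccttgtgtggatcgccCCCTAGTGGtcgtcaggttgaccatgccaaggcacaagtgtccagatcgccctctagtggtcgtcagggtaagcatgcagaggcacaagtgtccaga
Peak1, kept promoter: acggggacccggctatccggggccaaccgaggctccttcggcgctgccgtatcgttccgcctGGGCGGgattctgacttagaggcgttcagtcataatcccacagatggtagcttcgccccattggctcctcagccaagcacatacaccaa
Gm13212, kept promoter: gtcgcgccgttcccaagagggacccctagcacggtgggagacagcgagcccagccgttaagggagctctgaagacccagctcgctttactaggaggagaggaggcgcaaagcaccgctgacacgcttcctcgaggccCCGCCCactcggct
The strongest gained peaks follow, with the GC box and the Nfy motif CCAAT in capitals. The window at Xlr3a (chrX:73097123-73097273) lay in an exon of the processed transcript Gm20455 and had a fold enrichment of 17.4. The window named for Gm21188 (chr13:120070954-120071104) was intergenic with 17.4, and the window at the start of Sumf2 (chr5:129846796-129846946) had 16.9.
Xlr3a, gained: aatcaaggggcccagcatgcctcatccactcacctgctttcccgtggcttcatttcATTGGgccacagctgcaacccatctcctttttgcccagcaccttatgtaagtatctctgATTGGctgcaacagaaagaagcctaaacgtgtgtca
Gm21188, gained: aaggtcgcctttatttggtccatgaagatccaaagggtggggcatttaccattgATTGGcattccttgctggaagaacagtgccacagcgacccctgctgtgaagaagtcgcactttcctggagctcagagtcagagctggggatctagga
Sumf2, gained: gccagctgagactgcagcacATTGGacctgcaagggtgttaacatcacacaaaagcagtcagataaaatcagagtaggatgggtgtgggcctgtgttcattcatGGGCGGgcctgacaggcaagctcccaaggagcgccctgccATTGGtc
Peaks are named here for the nearest protein-coding start, which can be far away or differ from the transcript under the peak.

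In shape, lost peaks were narrow and gained peaks weak, while kept peaks were wide, stronger and split into more summits. The median width was 445 bp for lost peaks (quartiles 326 to 589), 537 bp for gained peaks (385 to 732) and 693 bp for kept peaks (535 to 873). The median fold enrichment, the peak caller's ratio of signal to local background, was 8.06 for lost, 8.48 for kept and 7.12 for gained peaks, with highest values of 32.5, 65.4 and 17.4. The share of peaks with 2 or more summits was 35.4% for lost (95% Wilson interval 34.7 to 36.0), 56.9% for kept (55.6 to 58.1) and 43.5% for gained peaks (42.4 to 44.6). All such intervals here cover counting over peaks only, not the spread between embryos. The highest number of summits in 1 peak was 7, 9 and 6. Position and shape went together. Gained promoter peaks resembled kept promoter peaks, with a median width of 657 against 730 bp and 56.2% against 60.1% with 2 or more summits. Gained distal peaks were narrow, with a median of 422 bp, and 28.3% of them had more than 1 summit.

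**Figure D1:**
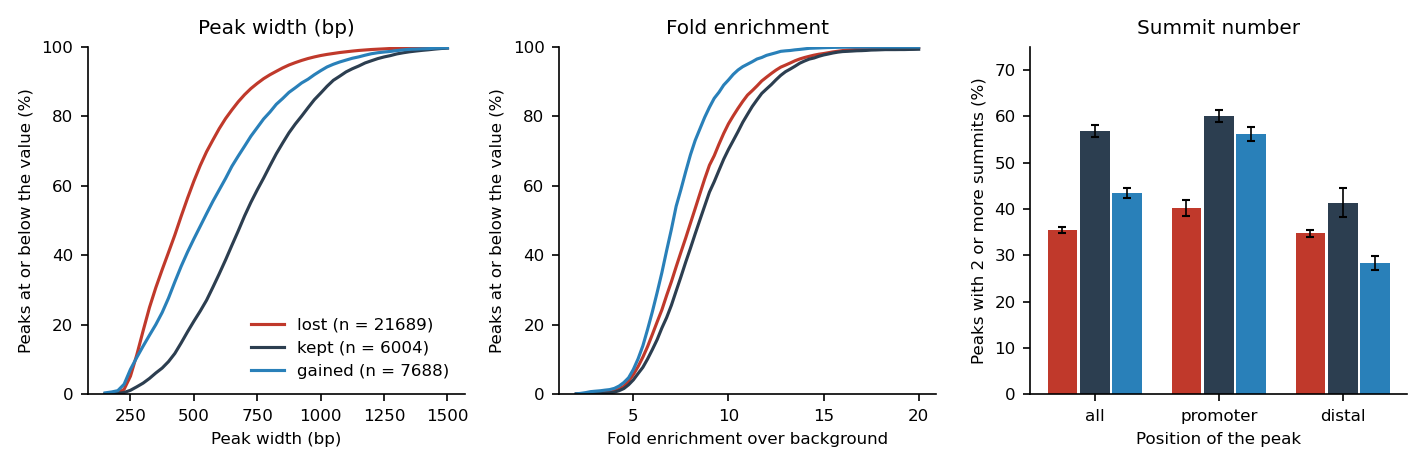
Left and middle, cumulative share of peaks (y axis, %) at or below a width (bp) and a fold enrichment over background, for lost, kept and gained peaks. Right, share of peaks with 2 or more summits by position, with bars for 95% Wilson intervals. Lost peaks are the narrowest as a whole (median 445 bp) and gained peaks have the lowest fold enrichment (median 7.12).

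Within promoters, the share lost followed width and summit number, and among distal peaks it hardly did. Of DMSO promoter peaks, 48.4% with 1 summit were lost, 32.4% with 2 and 24% with 3 or more. From the narrowest to the widest quartile of width, 73.2, 40.6, 23.9 and 16.6% of promoter peaks were lost. Quartiles set among distal peaks lost 96.6, 95, 94.2 and 92.0%, and distal peaks with 3 or more summits still lost 92.5%. The quartiles were cut at 464, 644 and 835 bp for promoter peaks and at 326, 446 and 587 bp for distal peaks. By annotation, 96.6% of DMSO peaks in introns, 92.6% of intergenic peaks and 88.3% of exonic peaks outside promoters were lost. The share lost was similar along the genome, between 73.8 and 80.3% on every chromosome other than Y, which had 5 DMSO peaks.

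**Figure D2:**
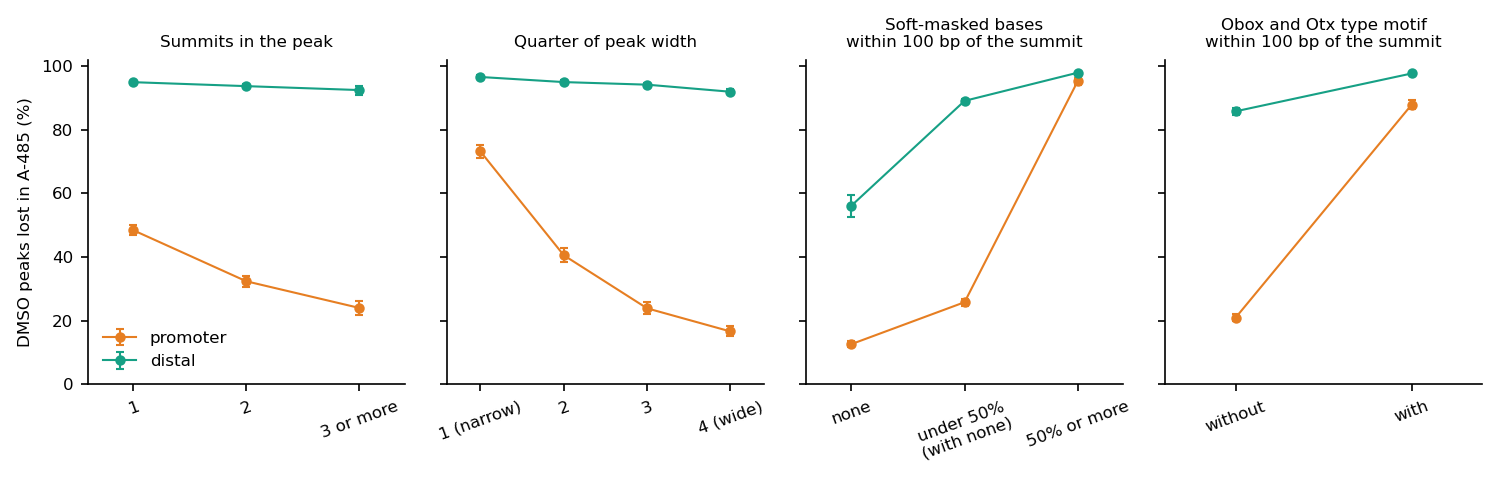
Share of DMSO peaks with no overlapping A-485 peak (y axis, %) for promoter and distal peaks, by number of summits, quartile of width, soft-masked bases around the summit and presence of the Obox and Otx type motif. Quartiles of width were set apart for promoter and distal peaks. Points are shares and bars 95% Wilson intervals over peaks, and the class under 50% includes peaks with no masked base. Promoter peaks run from 12.6% lost with no masked base to 95.3% with 50% or more masked, while distal peaks are at 85.8% or more in all classes but the one with no masked base (56.2%).

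Lost peaks lay mostly in repeated sequence. Soft-masked bases (lower case in the reference, marking repeats) made up 50% or more of the 201 bases around the summit in 60.1% of lost peaks, against 5.03% of kept and 4.38% of gained peaks. Among DMSO peaks, 97.7% of those with 50% or more masked bases were lost, and 20.9% of those with none. The same order held within promoters (95.3 against 12.6%) and within distal peaks (98.0 against 56.2%). The bases at the summit were nonetheless mostly particular to their place. The 31-mer at the summit occurred once in the genome for 89.6% of lost, 96.6% of kept and 97.3% of gained peaks, and 10 times or more for 4.73, 0.483 and 0.208%. How reads that match several places affected peak calls in repeats was not tested.

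Base composition separated the classes in the opposite direction. The median GC content of the 201 bases was 49.3% in lost, 63.2% in kept and 58.7% in gained peaks, and the median number of CpG dinucleotides was 3, 15 and 9. Of DMSO peaks with under 10 CpG, 93.2% were lost, and of those with 20 or more, 10.5%. The few distal peaks with 20 or more CpG (39 peaks) lost 20.5%, and distal peaks with 10 to 19 CpG (269 peaks) lost 48.0%.

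Of the 13 motifs counted, GGATTA of Obox and Otx type factors differed by the most percentage points between lost and kept peaks. It stood in 73.0% of lost windows of 201 bases, 9.54% of kept and 4.29% of gained windows, and in 9.94% of windows of the same length 10 kb from the summits. In promoters alone it was in 59.9, 5.17 and 2.55%, and in 5.24% of 32851 RefSeq promoters (GRCm38.p6, the first 201 of 300 bases, all upstream of the start). DMSO promoter peaks with the motif were lost in 87.9% of cases and those without it in 21.0%. In distal peaks the shares were 97.7 and 85.8%. The instance nearest to the summit of a lost peak lay at a median distance of 35.5 bp, and 69.8% lay within 50 bp. The motif was not a mark of weak peaks. By quartile of fold enrichment, set over all DMSO peaks, its share among lost peaks was 67.3% in the lowest and 78.4% in the highest. Among all DMSO peaks, kept ones included, it went from 56.8 to 60.9%. Among peaks under 50% masked, which can still hold some masked bases, 94.0% were lost with GGATTA and 37.5% without it. In windows with no masked base the contrast was smaller, with GGATTA in 10.3% of lost (interval 8.54 to 12.3) and 3.18% of kept windows (2.67 to 3.78), and the share in lost windows was near the 9.94% of distant windows.

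Most of these instances belonged to 1 longer run. In lost peaks, 93.4% of the nearest GGATTA instances were in masked bases. Of all 12-mers on either strand, CCTTTAATCCCA was in the most lost windows, 55.0%, against 5.05% of kept, 0.546% of gained and 2.48% of distant windows. This 12-mer was picked after its counts were seen. By whole list, it was in 44.2% of DMSO and 1.87% of A-485 peaks at early 2-cell, and in 2.15% and 0.578% of peaks in the late 1-cell DMSO and A-485 lists.

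Other motifs also differed between classes. The Nr5a2 type motif TCAAGGNCA was in 14.3% of lost, 1.32% of kept and 0.819% of gained windows, and in 2.88% of distant windows. Of its nearest instances in lost peaks, 92.8% were in masked bases. In windows with no masked base it was in 1.86% of lost and 0.413% of kept windows, neither above the 2.88% of distant windows. In lost peaks, 77.1% of windows with TCAAGGNCA also held GGATTA, so these 2 motifs do not count separate sets. The GC box GGGCGG (Sp and Klf factors) was in 7.41% of lost, 60.3% of kept and 39.8% of gained windows, and in 24.8% of RefSeq promoters. The Ets motif CCGGAAG followed the same order, at 1.08, 12.1 and 6.63%, and so did the Nfy motif CCAAT, at 17.4, 42.0 and 27.8%. Ctcf, which holds chromatin loops, has the core CCANNAGGG, found in 2.38% of lost, 6.10% of kept and 7.52% of gained windows and in 9.61 and 9.98% of kept and gained distal windows. The Snai and Zeb motif CAGGTG was in 27.4% of lost, 13.5% of kept and 14.5% of distant windows. The motifs of Gata factors (AGATAA), of Tead factors (GGAATG) and of Dux type (TGATTNAAT) were in no larger a share of lost, kept or gained windows than of distant windows. The Klf motif GGGNGTGG, which differed less, was in 23.9, 21.7 and 15.4% of lost, kept and gained windows. The nuclear receptor motif AGGTCA was in 13% of lost windows and 12.2% of distant windows. The Nrf1 motif GCGCATGCG was rare, in 0.0922, 1.68 and 1.29%. A motif match is a description of letters, and overlapping matches of different motifs were not removed.

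**Figure D3:**
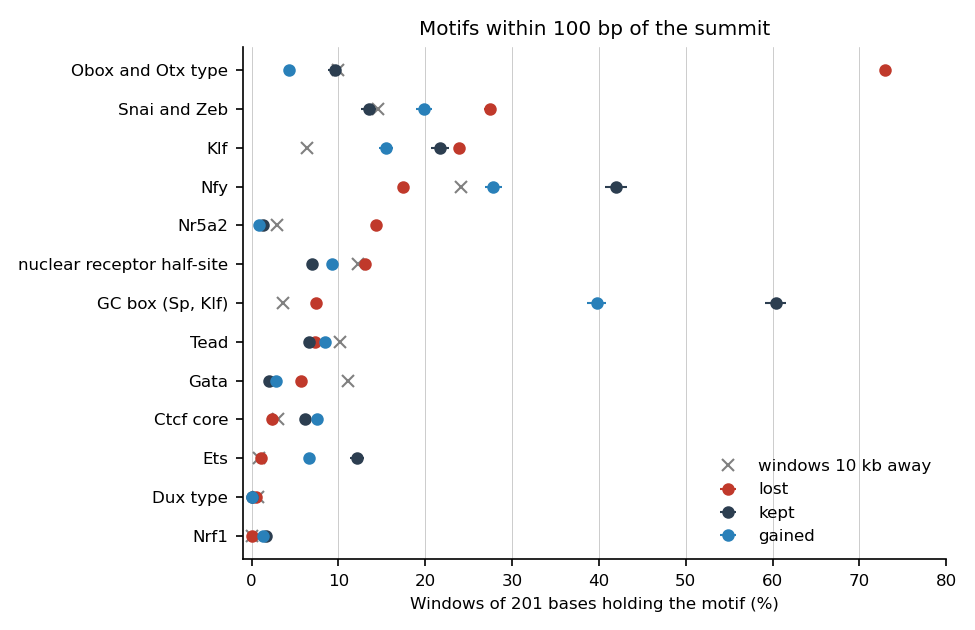
Share of windows of 201 bases around the summit that hold each motif (x axis, %), by factor type (y axis), for lost, kept and gained peaks and for windows 10 kb away (crosses), with 95% Wilson intervals. The Obox and Otx type motif is in 73.0% of lost windows, and the GC box in 60.3% of kept and 39.8% of gained windows.

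The strongest lost peaks were near a diverse set of genes. The lost peak of highest fold enrichment (32.5, chr1:85603564-85604018) lay in an intron, 2861 bp from the start of Sp140, a nuclear body protein of immune cells, and the next lay near Mrln (26.5), A530032D15Rik (25.9), Tti1 (23.1), Rlf (22.5), Armc10 (22.3), Gm14393 (22.3) and Lrguk (22.0). Of these 8, 1 was a promoter peak and 6 were distal. In 7 of the 8, 50% or more of the bases at the summit were masked. The peak near Sp140 was the one of the 8 that was already open at late 1-cell in DMSO, and the 31-mer at the summit of the Mrln peak had 47 copies.

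The strongest gained peaks sat mostly on promoters, at Xlr3a, an X-linked lymphocyte-regulated gene (17.4), Sumf2 (16.9), Ccdc82 (16.2), Mpv17l (16.1), Depdc1a (15.9) and Fh1, the fumarase of the citric acid cycle (16). The other two were distal, near Gm21188 (17.4) and Fer, a tyrosine kinase (15.7). All 8 were listed as open in 1 or both of the late 1-cell lists. Of all gained peaks, 24.8% overlapped a late 1-cell DMSO peak, against 65.8% of kept and 2.77% of lost peaks, and 68.1% overlapped neither late 1-cell list.

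The strongest kept peaks were set apart by their sequence. The highest was 12853 bp from the start of Abcb11, with fold enrichments of 65.4 in DMSO and 64.9 in A-485, followed by peaks named for Gm5426 (56.3 and 56.2), Pak3 (56.1 and 53.5) and G6pd2 (50.6 and 52.4), whose start was 1765654 bp away. In 6 of the 8 strongest kept peaks, 13.5 to 43.3% of the 31-mers also occurred in the mitochondrial genome. Their fold enrichment can therefore hold reads of mitochondrial DNA, and how many was not tested. All 8 were in both late 1-cell lists. Without mitochondrial matches and with a summit of 1 copy, the strongest kept peaks were named for Pak3, Myl12b (41.4 and 29.8), Cdh20 (38.2 in DMSO), whose start was 2140131 bp away, and Alkbh8 (31.7 in DMSO). These were picked after the values were seen.

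Ranking by fold enrichment within each list, among the 6004 kept peaks, removed the difference in scale between the lists. The rank, from 0 to 100, of promoter peaks moved little, with a median change of +1.42 points (quartiles -15.4 to 20.6, n = 4933), and their median fold enrichment was 8.42 in DMSO and 8.72 in A-485. Distal peaks fell by a median of 9.70 points (n = 926), from a fold enrichment of 8.91 to 7.97. Of distal peaks, 33.3% fell by 25 points or more and 13.6% rose by as much, against 16.5 and 21.1% of promoter peaks. In the highest quartile of DMSO fold enrichment, 12.1% of distal and 21.5% of promoter peaks were stronger in A-485. In the lowest quartile, 73.1 and 82.3% were. The quartiles were set on the DMSO value itself, so positions are to be compared within a quartile and not across quartiles. Kept peaks already open at late 1-cell rose by 1.28 points (n = 3949) and the others fell by 3.55 (n = 2055). When peaks under a -log10 q of 20 were left out of both lists, the medians were -0.29 points for promoter and -0.69 for distal peaks, so the fall of distal peaks was not seen among peaks with a strong q.

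**Figure D4:**
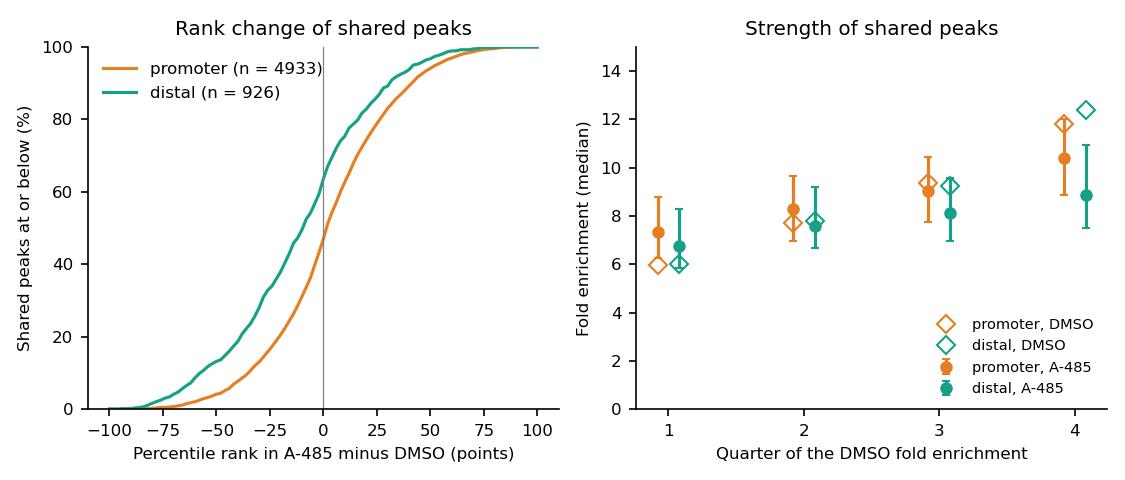
Left, cumulative share (y axis, %) of kept promoter and distal peaks by the change of percentile rank, A-485 minus DMSO (x axis, points). Right, median fold enrichment of the same peaks in DMSO (diamonds) and A-485 (points, with bars for quartiles) by quartile of DMSO fold enrichment. The distal curve is shifted to the left, with a median change of -9.70 points against +1.42 for promoters.

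The largest rises of rank were at 6 promoters, Hivep3 (+92.1 points, fold enrichment 2.48 to 12.3), Smarcc1 (+91.9, 4.94 to 13.3), Rab11b (+86.2), Clpx (+85), Uqcrb (+84.8) and Ptdss2 (+84.5). Smarcc1 is a core subunit of the SWI/SNF remodelling complex, and Clpx and Uqcrb act in mitochondria. The largest falls were in peaks named for Sfi1 (-95.2, 14.3 to 4.71), Leo1 (-94.9), Zfp423 (-89.7), Tef (-88.7), Pdcd1 (-88.3) and Ggnbp1 (-88.1), of which 2 were promoter peaks. The peaks near Leo1 and Zfp423 had 90.5 and 52.2% masked bases at the summit, and none of the 6 rising peaks had more than 24.4%.

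Promoter peaks put each gene in 1 of 4 classes. Of 21951 protein-coding genes, 1260 had a lost promoter peak and no A-485 promoter peak, and 5696 had a promoter peak in both lists. The latter genes were called kept whether or not their DMSO and A-485 peaks overlapped. A promoter peak in A-485 alone was found for 3288 genes, and none in either list for 11707. Lost distal peaks were within 100 kb of 7433 genes as the nearest protein-coding gene (93.0% of these peaks), and 1759 genes (8.01%) had 3 or more. Rere, a nuclear receptor corepressor, had the most, 21, then Smg6 of nonsense-mediated decay (15) and Bcas3, Btaf1 and Spop (12 each), followed by Mapkap1, Nrf1, Cul1, Dtnb and Ambra1 with 11 each. None of these 10 genes had a kept distal peak. Such peaks were few, since 94.5% of all DMSO distal peaks were lost and 926 were kept. By gained peaks, Grhl2, a regulator of epithelial genes, came first with 6, then Fabp5, Ank3, Slc28a3, Atxn1, Scn8a, Zfp516 and Kcnip1 (5 each).

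In early 2-cell RNA, the share of genes lower in A-485 was 13.6% with a lost and 11.5% with a kept promoter peak, with overlapping intervals and no test of the difference. It was lower, 5.63%, with a gained promoter peak, but this order against kept ones turned when both lists held the same number of peaks. A gene was called at an adjusted p under 0.05 (edgeR quasi-likelihood test, Benjamini-Hochberg), a change of 2-fold or more and a mean of 1 FPKM (fragments per kilobase of transcript, scaled to library size) in either group. Of all 20872 genes tested, 7.9% were lower in A-485 and 0.402% higher. Of tested genes with a lost promoter peak, 154 of 1131 were lower (interval 11.7 to 15.7%), with a kept one 638 of 5556 (10.7 to 12.3%), with a gained one 170 of 3020 (4.86 to 6.51%) and with none 336 of 5814 (5.78%). The 1 FPKM that a call needs was reached by 76.4, 89.0, 70 and 49.2% of these groups. Among the genes that reached it, 17.8, 12.9, 8.04 and 11.7% were lower, against 12.7% of all such genes tested. Kept promoters and genes with none were then near the share of all genes. The order of lost over kept held at each level of expression, at 16 and 14.2% between 1 and 5 FPKM, 24 and 17.3% between 5 and 20, and 15.7 and 8.34% from 20 FPKM. The intervals of the lost and kept groups overlapped below 5 FPKM. Higher RNA in A-485 was called for 4, 14 and 11 genes of the lost, kept and gained groups. When each list was held to the same number of strongest peaks, the shares were 12.5% for lost, 8.62% for kept and 9.88% for gained promoters, so the order of kept and gained turned. In whole embryos, fewer embryos of a stage and less RNA per embryo cannot be told apart.

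Lost distal peaks gave a less even picture. Genes with 3 or more were lower in 10.4% of cases (173 of 1661), with 1 or 2 in 9.21% and with none in 7.52%. A call needs 1 FPKM in either group, which 87.0, 74.6 and 63.4% of these genes reached. Among the genes that reached it, this order was not seen, at 11.97, 12.34 and 11.85% lower. When each list was held to the same number of strongest peaks, 32 of 510 genes with 3 or more were lower (6.27%), below the 7.9% of all genes tested. Among genes at 20 FPKM or more the order was the reverse, at 5.74% with 3 or more and 12% with none, and of genes with 6 or more lost distal peaks 13 of 250 (5.2%) were lower. None of the 10 genes with most lost distal peaks passed the early call. For Rere the FPKM was 26.4 in DMSO and 25.5 in A-485, means of 2 libraries each, with a log2 fold change of -0.12.

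At late 2-cell, after release from the inhibitor, the differences between gene groups were wider. Of 22822 genes tested, 16.8% were lower and 10.5% higher in A-485. Of genes with a lost promoter peak 424 of 1178 were lower (36.0%), and of genes with a kept one 2017 of 5611 (35.9%). Within each level of expression the lost group had the higher share, at 22.6 and 12.7% between 1 and 5 FPKM, 50.3 and 38.8% between 5 and 20, and 57.9 and 53.5% from 20 FPKM, where the intervals overlapped. Genes with a gained promoter peak were lower in 11% and higher in 17.1% of cases (531 of 3105). Genes with no promoter peak in either list were lower in 9.34% and higher in 10.5%. The 1 FPKM that a call needs was reached by 81.9% of the gained group and 57.5% of the group with none. Among the genes that reached it, the gained group and the group with none were closer, at 20.9 and 18.2% higher and 13.4 and 16.2% lower. Genes with 3 or more lost distal peaks were lower in 31% (526 of 1696), with 1 or 2 in 23.8% and with none in 17.3% (24.7% with 3 or more when the lists were of equal number), but among genes at 20 FPKM or more the order again turned (41.1% with 3 or more and 51% with none). The median log2 fold change of all genes tested at this stage was 0.28 and turned to -0.35 when libraries were scaled to mitochondrially encoded genes, whose share of counts was 10.5 to 12.3% in DMSO and 19.5 to 20.7% in A-485. Under that scaling the shares lower were 49.2% for lost, 50.9% for kept and 17.7% for gained promoters, and 10.7% of gained promoters were higher. Smg6 (log2 fold change -1.51) and Nrf1 (-1.47), a regulator of mitochondrial and housekeeping genes, were among the genes lower at this stage.

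**Figure D5:**
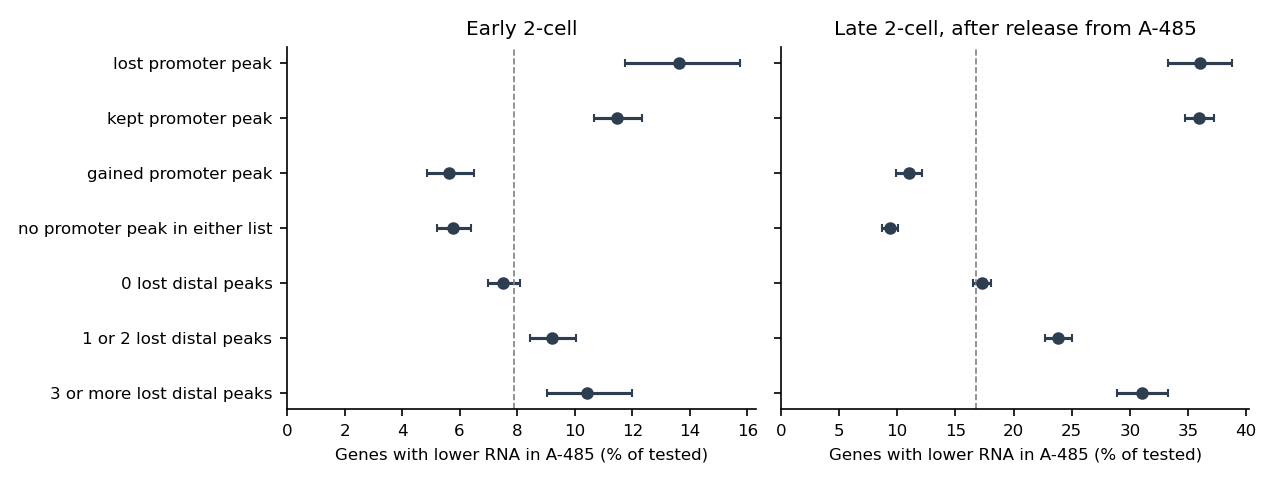
Share of tested genes with lower RNA in A-485 (x axis, %) at early and late 2-cell by promoter peak class and by number of lost distal peaks (y axis), with 95% Wilson intervals over genes. The dashed line is the share among all genes tested (7.9% at early and 16.8% at late 2-cell). Gained promoters lie below the line at both stages, and lost and kept promoters above it. The line includes genes under 1 FPKM, which could not be called. Among genes at 1 FPKM or more, kept promoters are near the share of all genes at early 2-cell (12.9 and 12.7%).

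Markers were checked in the early 2-cell RNA libraries. The oocyte and early embryo markers summed to 2553 to 2766 FPKM in early DMSO and 2899 to 3000 in A-485, with all 9 markers above 1 FPKM, and markers of cumulus cells, erythroid cells, fibroblasts and sperm summed to at most 8.62 FPKM in any of these libraries. Summed markers of 2-cell embryos were 2131 to 2299 in DMSO and 1598 to 1708 in A-485, and 7 of these 8 genes were lower in A-485 (median log2 fold change -7.51), all but Obox5. At late 2-cell, 2 of the 8 tested cumulus markers were higher (Foxl2 and Has2) and 1 lower (Amhr2) in A-485, with a median log2 fold change of 1.10. Of the 2 tested fibroblast markers Pdgfra was higher (means of 0.31 FPKM in DMSO and 14.9 in A-485). Their part in the late results was not tested. Library totals were 21496084 to 23864392 counts at early and 13206138 to 23067681 at late 2-cell.

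Genes of the 2-cell programme, which are switched on in the first wave of ZGA, mostly had no promoter peak in either list. Of 30 such genes, 4 had a lost, 3 a kept and 23 no promoter peak (13.3, 10 and 76.7%). Over all protein-coding genes these shares were 5.74, 25.9 and 53.3%. At early 2-cell 26 were lower, against 7.9% of all genes tested (median log2 fold change -4.65, against -0.01 for all protein-coding genes). Zfp352, a retrotransposed zinc finger gene, lost a promoter peak of fold enrichment 16.9. Its FPKM was 122 and 112 in DMSO and 1.28 and 1.52 in A-485, a log2 fold change of -6.46 ± 0.13 (SE, n = 2 per group, edgeR adjusted p = 6.06e-11). Tcstv3 lost a peak of 7.74 and went from 63.7 and 58.5 FPKM to 3.44 and 3.74. Rfpl4b lost a peak of 4.77 and went from 16 and 10.9 FPKM to 0.05 and 1.26. In all of these the libraries of the groups did not overlap. Many of these genes are members of multi-copy families whose reads can be shared between copies.

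The largest early falls of RNA among genes with a lost promoter peak were of this kind. Gm21762 had 60.2 and 59.5 FPKM in DMSO and was listed at 0 in both A-485 libraries, and its lost peak had a fold enrichment of 17.1. Tdpoz1, of a speckle-type POZ domain family, had 20.2 and 29.9 FPKM against 0 and 0.03. Gm21319, AF067063, Rps12-ps3 and AF067061 were at or near 0 in A-485 in the same way. Falls of like size occurred where the promoter peak was kept. Crxos, an oocyte and 2-cell homeobox gene, had 69.4 and 81.3 FPKM in DMSO and 0.27 and 0.13 in A-485, with a peak of 7.25 in DMSO and 5.74 in A-485. Zfp622 (log2 fold change -6.24), D13Ertd608e (-6.09) and Chchd10 (-5.15), a mitochondrial protein gene, also had a promoter peak in both lists, and so did Gm4858 and Gm2016. Falls occurred even where a promoter peak was gained. Slc34a2, a phosphate transporter, had 88.6 and 72.0 FPKM in DMSO and 1.29 and 1.13 in A-485 (-5.80 ± 0.15, edgeR adjusted p = 2.41e-10), while A-485 alone listed a promoter peak of 8.26. Ficd (-5.33), P4ha2 (-4.96), Ttc30b (-4.24), Bex1 (-4.14) and C1d (-3.09) were like it. Few rises met the naming rule. Ccdc127 rose with a kept peak (+1.53, from 8.21 and 5.56 to 12.9 and 17.0 FPKM). Zc3h11a rose in counts (+1.21) while its FPKM fell from a mean of 11.6 to 7.75, and it shares its symbol with a second annotated gene. Gm49366, with a gained peak, was listed at 0 in both DMSO libraries and at 22.3 and 6.02 FPKM in A-485.

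Most genes of ribosome assembly had a kept promoter peak, and many had lower RNA. Of 79 cytoplasmic ribosomal protein genes, 53 had a kept, 7 a lost, 10 a gained and 9 no promoter peak, and of 81 ribosome biogenesis genes 53, 9, 12 and 7. Over all protein-coding genes, 25.9% had a kept promoter peak. Among genes of these lists with a promoter peak in DMSO, it was lost for 11.7 and 14.5%, against 18.1% of all such protein-coding genes. RNA was lower for 48 of 79 and 27 of 81 at early 2-cell and for 77 and 76 at late 2-cell. Of all genes tested, 7.9% were lower at early and 16.8% at late 2-cell. The lost promoters included those of Rps15, Rps25, Rps28 and Rps3a1, with weak peaks of fold enrichment 4.49 to 7.22. Rps15 went at late 2-cell from 128 and 131 FPKM to 3.49 and 5.33. Among the gained, Rpl6 (a peak of 7.17 in A-485) was lower at early 2-cell, at log2 -2.52. Of 31 proteasome genes, 20 kept, 3 lost and 3 gained a promoter peak, with 2 lower at early and 23 at late 2-cell. The early count was no larger a share than among all genes tested.

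Of 28 oocyte and maternal-effect genes, 5 (17.9%) lost a promoter peak, against 5.74% of all protein-coding genes. These were Dnmt1, the maintenance DNA methyltransferase, and Gdf9, Oosp1, Padi6 and Tle6, genes of the oocyte, and none of the 5 passed the RNA call at either stage. A promoter peak was kept at 2 and gained at 4 genes. Among the few genes of the list with a promoter peak in DMSO (5 lost and 2 kept), it was lost for 71.4%, against 18.1% of all such protein-coding genes. Of the list, 1 gene was lower at early 2-cell, and 1 was lower and 1 higher at late 2-cell. Over all genes tested, 7.9% were lower at early 2-cell, and 16.8% lower and 10.5% higher at late 2-cell. Gdf9, a growth factor of the oocyte, had 92.5 and 83.8 FPKM in DMSO and 86.4 and 97.4 in A-485, groups that overlapped, while its lost peak had a fold enrichment of 7.70. Nlrp5 gained a peak of 12.4 at 60.3 FPKM in DMSO and 53.2 in A-485 (means). The list's late median log2 fold change was 0.21 and turned to -0.41 under mitochondrial scaling.

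Genes for later development mostly had no promoter peak in either list. Of 39 Hox genes, which pattern the body axis, none lost, 2 kept and 4 gained a promoter peak (Hoxa4, Hoxb9, Hoxc6 and Hoxd13), and of 36 other regulators of later development none lost, 2 kept and 9 gained one, among them Foxa1, Gata4, Nkx6-1, Pax3 and Pax6. Gained peaks were weak, from 4.89 (Hoxc6) to 8.74 (Nkx6-1). A gained promoter peak was thus listed for 10.3% of the Hox genes and 25% of the others, against 15% of all protein-coding genes, of which 5.74% had a lost one. No promoter peak was listed for 84.6% of the Hox genes and 69.4% of the others, against 53.3% of all protein-coding genes. At early 2-cell 2 of 31 tested Hox genes and 5 of 30 tested others were lower in A-485, against 7.9% of all genes tested. At late 2-cell 17 of 36 tested Hox genes and 12 of 31 tested others were higher, against 10.5% of all genes tested. Under mitochondrial scaling 15 and 9 were higher. Pax6, which directs eye and brain development, had 2.69 and 2.86 FPKM in late DMSO and 42.4 and 36.5 in late A-485, a log2 fold change of 3.75 ± 0.25 (edgeR adjusted p = 2.47e-07). Hoxd13 had 0.78 and 1.09 FPKM against 16.2 and 11. In both, every A-485 library was above every DMSO library. Gata4 differed, with 4 lost distal peaks and a fall from 56.7 to 15 FPKM (means) at late 2-cell.

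Regulators of pluripotency and the first lineages stood near many lost distal peaks. Of 30 such genes, 13 had 3 or more (43.3%), against 8.01% of all protein-coding genes. With 94.5% of all DMSO distal peaks lost, this count mostly follows the number of DMSO distal peaks near a gene. Promoters were lost at 3 (Dppa4, Fgf4 and Lin28a), kept at 11 and gained at 7. Dppa4, a chromatin protein that primes early genes, lost a peak of 7.15 and went from 36.1 and 31.4 FPKM to 0.84 and 1.75 at early 2-cell (log2 -4.12 ± 0.30, edgeR adjusted p = 1.01e-06). Its partner gene Dppa2 had 8 lost distal peaks 2.71 to 37.6 kb downstream of its nearest annotated transcript start. Dppa2 went from 101.9 and 88.7 FPKM to 16.6 and 11.6 at late 2-cell. Esrrb, an orphan nuclear receptor, had 9 lost distal peaks with fold enrichments of 6.90 to 10.7. Of these 9, 7 held GGATTA, against 75.03% of all lost distal peaks. The promoter peak of Esrrb was gained (7.37). Esrrb RNA was lower at both stages (log2 -1.42 and -3.61). Gata3, which acts in trophectoderm, gained a promoter peak of 8.82 and rose at late 2-cell from 1.22 and 0.48 FPKM to 9.06 and 15.4. Nr5a2, whose motif was counted above, lost a weak promoter peak of 4.33 and had 8 lost distal peaks. It had 73.6 and 78.6 FPKM in late DMSO and 18.6 and 10.8 in late A-485.

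The targets of the inhibitor were themselves among the genes with many lost distal peaks. Of 29 genes for histone acetyltransferases, deacetylases and BET proteins, 10 had 3 or more (34.5%), against 8.01% of all protein-coding genes. Kat6b had 10 (fold enrichment 4.86 to 12.9, of which 9 held GGATTA, all in annotated introns), Crebbp, the gene of CBP, 8 (5.59 to 10.3, all with GGATTA), Ncoa2 and Ncoa3 7 each, and Ep300, the gene of p300, 6 (6.49 to 11.7, all with GGATTA). Of all lost distal peaks, 75.03% held GGATTA. None of these 5 genes had a kept distal peak. Since 94.5% of all DMSO distal peaks were lost, such counts mostly follow the number of DMSO distal peaks near a gene. Of all 5696 genes with a kept promoter peak, 841 had 3 or more lost distal peaks. Promoters of Kat14 (14.0) and Kat2b (12.7) were lost, and those of Crebbp and Ep300 kept. Ep300 RNA was 116 and 124 FPKM in late DMSO and 42.2 and 43.0 in late A-485 (log2 -1.92 ± 0.09, edgeR adjusted p = 2.19e-08). At early 2-cell it was 51.4 and 41.6 against 31.5 and 32.2, short of the 2-fold threshold (log2 -0.47). Crebbp was 232 and 196 against 345 and 354 at late 2-cell, also short of it (log2 0.55), and this sign turned under mitochondrial scaling (-0.08). Among the 14 factors whose motifs the study examined, promoters of Nr5a2 and Rara were lost, 10 kept and that of Npas2 gained. At late 2-cell 9 of the 14 were lower, against 16.8% of all genes tested.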

How the data were processed

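ATAC-seq peak lists of early 2-cell embryos (1 list per group, over 2 replicates) and RNA-seq of early and late 2-cell embryos (8 libraries) were analysed. The authors processed ATAC-seq reads on GRCm38 with version v2.1.2 of ENCODE's ATAC-seq workflow, whose optimal lists, as deposited, give an IDR score of at most 1000, a fold enrichment over local background and -log10 q for every line. The authors mapped RNA-seq reads with STAR 2.7.8a and quantified genes with RSEM 1.3.1, and the deposited tables give expected counts and FPKM per gene. No peak list holds read counts, so the depth of the ATAC-seq libraries is unknown.

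Lines at the same position were joined, with the highest fold enrichment kept and lines counted as summits. Any overlap of 1 base counted as shared. Promoter peaks lay within 1 kb of a GENCODE vM21 transcript start and distal peaks over 2.5 kb away. Base composition and 13 motifs (both strands, as spelled in the text) were counted within 100 bp of the summit of the highest fold enrichment, and each peak went to the nearest protein-coding start within 100 kb. Shares carry 95% Wilson intervals (counting error only), with no test, since members of 1 list are not replicates. Expected counts were rounded and tested with edgeR 4.0.16 (quasi-likelihood, TMM scaling, 10 or more counts summed over the 4 libraries of a stage) in R 4.3.3, with Benjamini-Hochberg adjustment over all genes tested. Nothing in the labels says whether replicates came from separate collections, so p-values measure the spread between these samples, which may be technical. Both stages were fitted apart, with 20872 and 22822 genes. On simulated early counts, 92 of 100 genes changed 4-fold and 61 of 100 changed 2-fold were called. Python 3.11.15 with pandas 2.3.3 was used otherwise.

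Named were the 8 strongest lost, gained and kept peaks, the 6 largest rank changes in each direction, the 10 genes with most lost distal and the 8 with most gained peaks, per promoter class the 6 genes with the largest fall and the 3 with the largest rise of RNA among called genes at 10 FPKM or more in 1 group and without overlap, and list members with a lost or gained promoter peak or 3 or more lost distal peaks, of which a selection is printed. Printed windows were drawn from the strongest of each class with the stated motif, and those with a summit of 1 copy and those of Esrrb and Kat6b were added after values were seen. Members and lists were chosen with earlier results of these data known. Alternatives were DESeq2 1.42.0, other scalings, no filter on low counts, a replicate block, leaving out each library, other definitions of a shared peak, lists of equal length, and, added after the data were seen, a -log10 q of 20, the stronger DMSO peaks, peaks with a summit of 1 copy and scaling to mitochondrially encoded genes.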

Additional observations from a re-analysis of the deposited data

How the results depend on the processing

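Of the values recomputed under alternatives, 88 kept their direction and size, 26 moved and 1 turned. The share of DMSO peaks lost was 79.9% with a reciprocal overlap of 50%, 81.6% when summits had to lie within 100 bp, 75.8% with lists of equal number, 81.8% at -log10 q of 20 or more, 75.8% for the stronger DMSO peaks and 77.3% for peaks with a summit of 1 copy. The share of A-485 peaks gained was 59.4% with reciprocal overlap, 62.9% by summits, 75.5% with lists of equal number and 43.5% at -log10 q of 20. The median width of lost peaks was 453 bp by summits, 467 bp with equal number and 468 bp at -log10 q of 20, their median fold enrichment 9.83 with equal number and 8.54 at -log10 q of 20, and their share with 2 or more summits 37.1% by summits and 37.9% at -log10 q of 20. The rank change of promoter peaks was 2.12 points when ranked by -log10 q and turned to -0.29 at -log10 q of 20, where that of distal peaks was -0.69. With lists of equal number, 50, 269 and 539 genes with a lost, kept and gained promoter peak were lower at early 2-cell and 111 with a lost one at late 2-cell, and 32 and 127 genes with 3 or more lost distal peaks were lower at early and late 2-cell. Scaling to mitochondrially encoded genes gave 819 of the latter at late 2-cell, where it moved all calls from 3824 lower and 2406 higher to 5558 and 1517, and scaling to total counts gave 3435 and 2939. The cause of these changes was not tested. Leaving out each RNA library gave 140 to 150, 549 to 652 and 148 to 171 genes lower with a lost, kept and gained promoter peak and 157 to 173 with 3 or more lost distal peaks at early 2-cell, and 388 to 429 with a lost promoter peak and 489 to 528 with 3 or more lost distal peaks at late 2-cell. Deviations of same-numbered libraries from their group means correlated at -0.04 (12636 genes) and -0.01 (13660 genes) at early and late 2-cell. No shared effect of the replicate number was seen, which does not tell whether same-numbered libraries were collected together. In the same order of groups, the fit with a replicate block gave 165, 676, 185 and 183 genes at early and 426 and 527 at late 2-cell. What limits these results is 1 peak list per group of unknown depth.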

Other observations

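Of all 12-mers on either strand, CCAGAAGAGGGC was in the most gained windows. It was in 2.04% of gained, 0.788% of lost and 0.566% of kept windows, and in 1.04% of windows 10 kb away, and it was picked after its counts were seen.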
